A study of Mus musculus with 4 samples.

Results

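The genes of the respiratory chain, the protein complexes that carry electrons to oxygen and make ATP in mitochondria, were followed in immune cells from mouse brain tumours. Members were the genes whose symbols begin with the stems used for subunits of complexes I to V (Ndufa, Ndufb, Ndufc, Ndufs, Ndufv, Sdh, Uqcr, Cox4 to Cox8, Atp5, and the mitochondrially encoded mt-Nd, mt-Co, mt-Cyt and mt-Atp) and that had at least 100 unique molecular identifiers (UMIs, each standing for 1 counted RNA molecule) over the 4 libraries. Of 31053 genes in the matrices, 106 were members, 93 nuclear-encoded and 13 mt-encoded. By name, the nuclear members were 38 subunits and 8 assembly factors (Ndufaf) of complex I, 4 subunits and 4 assembly factors (Sdhaf) of complex II, 8 subunits of complex III, 15 of complex IV and 16 of complex V. The mt-encoded members were 7 subunits of complex I, 1 of complex III, 3 of complex IV and 2 of complex V. The member with the fewest UMIs was Ndufa4l2 with 112, and the matching symbols left out were Cox8b with 6 UMIs, Cox7b2 and Cox8c with 0, and a second Atp5o identifier with 0.

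The 4 libraries were single-cell RNA libraries of immune cells that had entered brain tumours, taken when the mice, of strain C57BL/6, were symptomatic, 2 from tumours labelled wtIDH1 (wild-type isocitrate dehydrogenase 1) and 2 from tumours labelled mIDH1 (mutant). The labels used here do not give the IDH1 allele, the other alterations of the tumours, the age of the mice, the sort that enriched the immune cells, or whether each library came from its own animals, so that p-values measure the spread between these libraries. The comparison asks whether immune cells of the same class differ in respiratory chain RNA between the 2 tumour genotypes.

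Mitochondria hold their own small genome, which in mammals encodes a core of subunits of complexes I, III, IV and V, while all of complex II and most other subunits are encoded in the nucleus and imported. A working complex therefore needs RNA from both genomes, and the mitochondrial RNAs are cut from long transcripts made from the circular genome. Neutrophils are known to rely mostly on glycolysis and to hold few mitochondria, whereas macrophages, microglia and lymphocytes use respiration to a degree that changes with their activation.

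Pairs of mt-encoded members share bases, which bears on how their UMIs can be told apart. The coding regions of mt-Atp8 and mt-Atp6, subunits of complex V made from a shared RNA, overlap by 43 bases on the plus strand at chrM:7927-7969 (GRCm38, GENCODE M21), with the shared stretch shown here because counts of mt-Atp8 behaved unlike those of mt-Atp6.
mt-Atp8 and mt-Atp6 overlap: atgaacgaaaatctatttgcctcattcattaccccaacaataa
The shared RNA of mt-Nd4l (chrM:9877-10173) and mt-Nd4 (chrM:10167-11544), subunits of complex I, has an overlap of 7 bases. On opposite strands, mt-Nd5 and mt-Nd6 overlap by 14 bases, and the sources used here do not say whether counting used the strand.

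Promoters of 76 of the 93 nuclear members were found by symbol in the RefSeq table (GRCm38.p6), and the 250 bases before the first listed start were searched on both strands for 3 short motifs. The core of the NRF1 site, GCGCATG, was present in 11 (14.5%), against 5.91% of 9639 promoters of genes with 100 or more UMIs and 3.32% of all 27025. The ETS core, CCGGAAG, was present in 15 (19.7%), against 14.1% and 7.05%. The YY1 core, AAGATGG, was present in 0, against 4.42% and 4.53%. The 4 promoters shown are pairs from the same complex: the complex IV subunits Cox5b and Cox6a1, and the complex V subunit c genes Atp5g1 and Atp5g2. Of the 6 cell classes tested, Cox5b and Atp5g1 were called higher in mIDH1 libraries in 5 and 4, and Cox6a1 and Atp5g2 in 0. The difference within a pair was not tested. Capitals mark matches to the NRF1 and ETS cores on either strand.
Cox5b, chr1:36691237-36691486, plus strand: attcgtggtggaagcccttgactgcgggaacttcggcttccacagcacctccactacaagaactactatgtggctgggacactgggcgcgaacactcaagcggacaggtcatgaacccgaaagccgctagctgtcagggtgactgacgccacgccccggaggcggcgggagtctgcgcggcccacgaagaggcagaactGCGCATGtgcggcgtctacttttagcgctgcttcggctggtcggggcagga
Cox6a1, chr5:115348959-115349208, minus strand: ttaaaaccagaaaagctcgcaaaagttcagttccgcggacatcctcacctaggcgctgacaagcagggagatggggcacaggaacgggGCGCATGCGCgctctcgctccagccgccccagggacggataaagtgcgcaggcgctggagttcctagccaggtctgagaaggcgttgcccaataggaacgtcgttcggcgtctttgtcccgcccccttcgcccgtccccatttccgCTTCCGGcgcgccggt
Atp5g1, chr11:96075632-96075881, minus strand: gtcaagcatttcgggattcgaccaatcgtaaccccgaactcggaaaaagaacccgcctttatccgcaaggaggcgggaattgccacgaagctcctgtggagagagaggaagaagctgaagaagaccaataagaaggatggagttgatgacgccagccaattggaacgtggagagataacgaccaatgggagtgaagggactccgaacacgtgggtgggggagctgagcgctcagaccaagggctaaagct
Atp5g2, chr15:102671048-102671297, minus strand: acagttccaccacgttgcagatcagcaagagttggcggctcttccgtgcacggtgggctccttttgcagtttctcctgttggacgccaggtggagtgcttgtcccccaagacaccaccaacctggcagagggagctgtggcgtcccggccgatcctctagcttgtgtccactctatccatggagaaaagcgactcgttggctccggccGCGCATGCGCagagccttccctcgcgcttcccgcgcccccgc
Cox5b, Cox6a1 and Atp5g2 hold the NRF1 core, Cox6a1 also holds the ETS core, and Atp5g1 holds neither in this window. A match describes the letters and says nothing of binding.

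The libraries held 3701 to 4708 barcodes and 20908476 to 29849183 UMIs, and 14896 of 16289 barcodes were kept. Cells were put into classes by which of 10 fixed marker lists had the highest share of its genes detected, with no respiratory chain gene in any list, and 3975 cells (26.7%) fell in no class. The largest classes held their own markers: the summed level of the neutrophil list in neutrophil-gated cells was 45075 to 126195 CPM (UMIs scaled to a fixed total per library and class), and that of the macrophage list in macrophage-gated cells was 25825 to 35857. Genotype was tested in 6 classes with at least 30 cells in every library. Microglia-gated cells numbered 57, 117, 59 and 10 in wtIDH1 libraries 1 and 2 and mIDH1 libraries 1 and 2, and B cell-gated cells numbered 14 to 34, so that these classes have values and no genotype test. Any library pair shared 6 to 25 cell barcodes.

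Within each library, the balance between the 2 genomes set neutrophil-gated cells apart from all classes but B cell-gated cells. The ranges of the remaining classes overlapped. Nuclear-encoded members took 0.70 to 0.83% of all UMIs in neutrophil-gated cells and 1.13 to 2.33% in monocyte-, macrophage-, microglia-, cDC2-, T cell- and NK cell-gated cells. The 13 mt-encoded members took 3.76 to 5.76% in neutrophil-gated cells, within the range of 2.82 to 7.40% seen in those other classes. The ratio of mt-encoded to nuclear-encoded UMIs was 7.48, 7.59, 6.41 and 4.73 in neutrophil-gated cells, in the library order given above. It was 2.97, 3.28, 2.51 and 1.93 in macrophage-gated cells and 2.52, 2.71, 1.88 and 1.25 in cDC2-gated cells (conventional dendritic cells of type 2). In all 4 libraries neutrophil-gated cells stood above macrophage-gated cells. B cell-gated cells, at 9.20, 8.61, 5.60 and 3.40, were above neutrophil-gated cells in both wtIDH1 libraries and below them in both mIDH1 libraries. Within macrophage-gated cells the ratio was highest for complex IV, whose 3 mt-encoded subunits form its catalytic core, at 6.22, 6.85, 5.16 and 3.72. It was 1.26 to 2.07 for complex I, 1.38 to 2.26 for complex III and 1.19 to 1.90 for complex V.

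In every class the ratio was lower in both mIDH1 libraries than in both wtIDH1 libraries. T cell-gated cells had ratios of 3.69 and 3.39 for wtIDH1 against 2.44 and 1.72 for mIDH1. NK cell-gated cells had 4.61 and 4.31 against 3.01 and 1.69, and monocyte-gated cells 3.03 and 3.12 against 2.33 and 1.58. Microglia-gated cells had 5.25 and 5.59 against 3.44 and 2.15, and B cell-gated cells 9.20 and 8.61 against 5.60 and 3.40. In microglia-gated cells the microglia markers were also lower, at 9683 and 11780 CPM against 4420 and 5613, and the macrophage markers higher, at 26628 and 27053 against 48483 and 49995, and their part in the ratio was not tested. The mean difference of the log2 ratio, mIDH1 minus wtIDH1, was -0.45 in neutrophil-gated, -0.68 in monocyte-gated, -0.50 in macrophage-gated, -1.0 in microglia-gated, -0.77 in cDC2-gated, -0.79 in T cell-gated and -0.98 in NK cell-gated cells. The groups did not overlap, and mIDH1 library 2 was the lowest throughout. Without that library the differences ran from -0.23 in neutrophil-gated to -0.66 in microglia-gated cells, and without mIDH1 library 1 from -0.67 to -1.40. The ratio does not depend on how libraries are scaled. It is given without a test, since an exact permutation test of 2 libraries against 2 cannot go below p = 0.333.

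**Figure D1:**
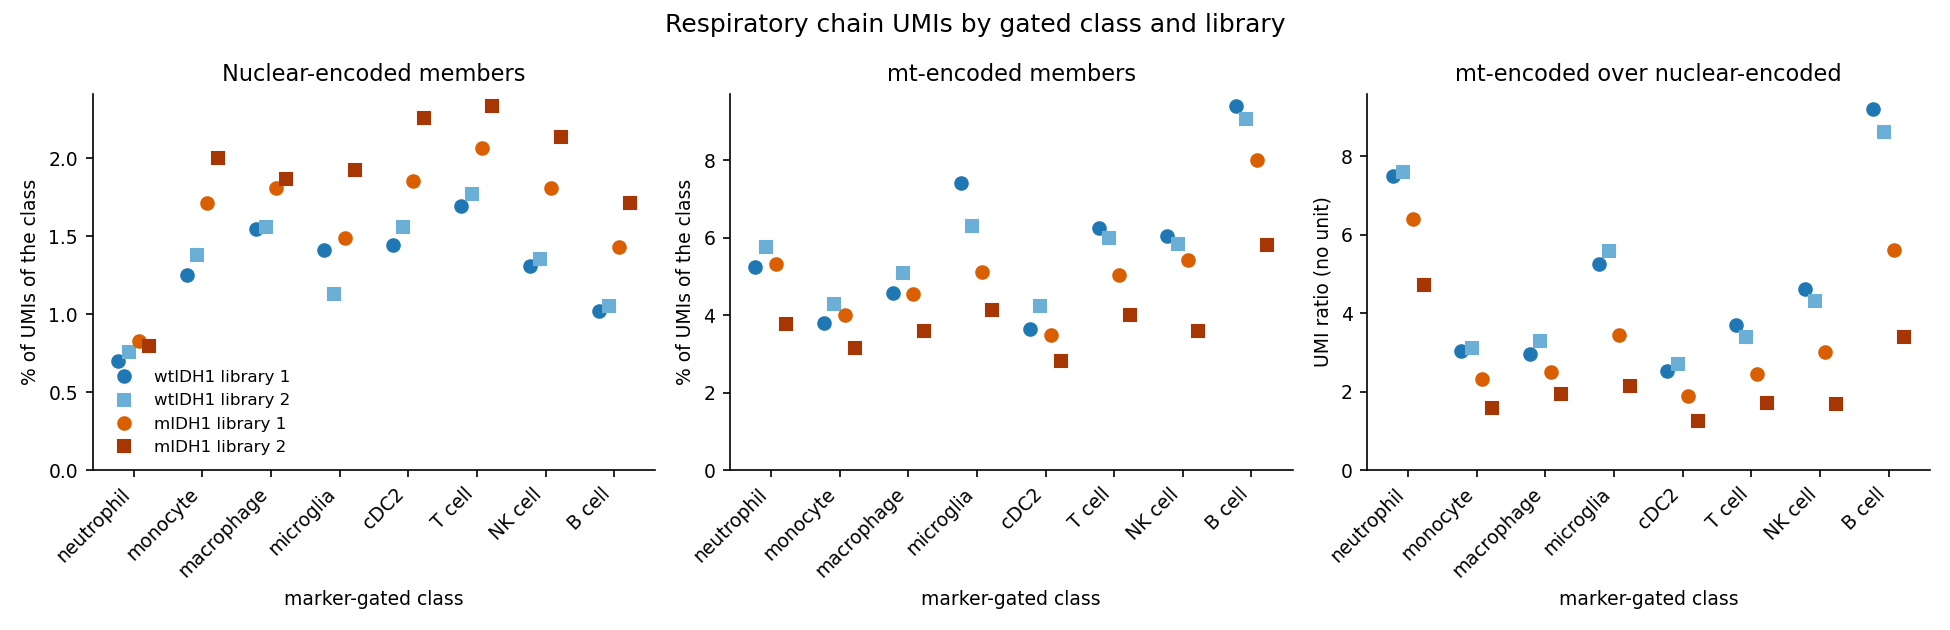
Share of each class's UMIs in nuclear-encoded members (left, %), in mt-encoded members (middle, %) and the ratio of the second to the first (right), with 1 point per library and class. Nuclear shares are lowest in neutrophil-gated cells (0.70 to 0.83%), and in each class both mIDH1 points of the ratio lie below both wtIDH1 points.

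The nuclear share was higher in both mIDH1 libraries than in both wtIDH1 libraries in every class, for example 1.25 and 1.38% against 1.71 and 2.0% in monocyte-gated cells. The mt share was lower in both mIDH1 libraries in T cell-gated cells (6.24 and 5.99% against 5.03 and 4.0%) and NK cell-gated cells (6.04 and 5.83% against 5.43 and 3.60%). The groups overlapped for the mt share in neutrophil-gated cells (5.24 and 5.76% against 5.32 and 3.76%) and monocyte-gated cells (3.79 and 4.30% against 3.99 and 3.16%). In macrophage-gated cells the nearest values were 4.57 and 4.54%. Complex II is the only complex with no mt-encoded subunit and the enzyme that also serves the tricarboxylic acid cycle. Its subunits took 0.039, 0.039, 0.034 and 0.033% of UMIs in macrophage-gated cells, lower in the mIDH1 libraries. That share was also lower in both mIDH1 libraries in T cell- and NK cell-gated cells. The groups overlapped in neutrophil-, microglia-, cDC2- and B cell-gated cells, and in monocyte-gated cells (0.031, 0.032, 0.030 and 0.033%).

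Tested gene by gene with edgeR, the members called between genotypes were all higher in mIDH1 libraries. In monocyte-gated cells 45 of 102 tested members rose, where 9.96% of all tested genes were called higher, and in macrophage-gated cells 26 of 104 rose against a background of 9.92%. In NK cell-gated cells 38 of 93 rose against 4.60%, in T cell-gated cells 23 of 101 against 3.54%, and in neutrophil-gated cells 5 of 95 against 1.41%. None was called lower in these 5 classes, where 0.737% of all genes were in neutrophil-gated, 5.71% in monocyte-gated, 6.09% in macrophage-gated, 0.989% in T cell-gated and 1.05% in NK cell-gated cells. In either direction 2.14, 15.7, 16.0, 4.53 and 5.66% of all genes were called in that order. Members lower at an unadjusted p under 0.05 numbered 3 in macrophage-gated cells, 1 each in neutrophil-, T cell- and NK cell-gated cells and 0 in monocyte-gated cells, and DESeq2 called 1 lower, in macrophage-gated cells. In cDC2-gated cells edgeR called 0 of 97 members and 0.00% of 7546 genes. There 51 members were higher at an unadjusted p under 0.05, and DESeq2 called 12.

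These counts moved with single libraries, controls included. In macrophage-gated cells edgeR called 0 members without either wtIDH1 library and 13 without mIDH1 library 2. In T cell-gated cells the count was 11 without wtIDH1 library 1, 6 without wtIDH1 library 2, and 65 without mIDH1 library 1, of which 5 were lower. In NK cell-gated cells it was 18 and 11 without wtIDH1 libraries 1 and 2, 69 without mIDH1 library 1 (5 lower) and 22 without mIDH1 library 2. In monocyte-gated cells it was 16 and 26 without wtIDH1 libraries 1 and 2 and 21 without mIDH1 library 2, and in neutrophil-gated cells 1 without wtIDH1 library 2, 20 without mIDH1 library 1 and 3 without mIDH1 library 2. In cDC2-gated cells it was 49 without mIDH1 library 1 and 8 without mIDH1 library 2.

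**Figure D2:**
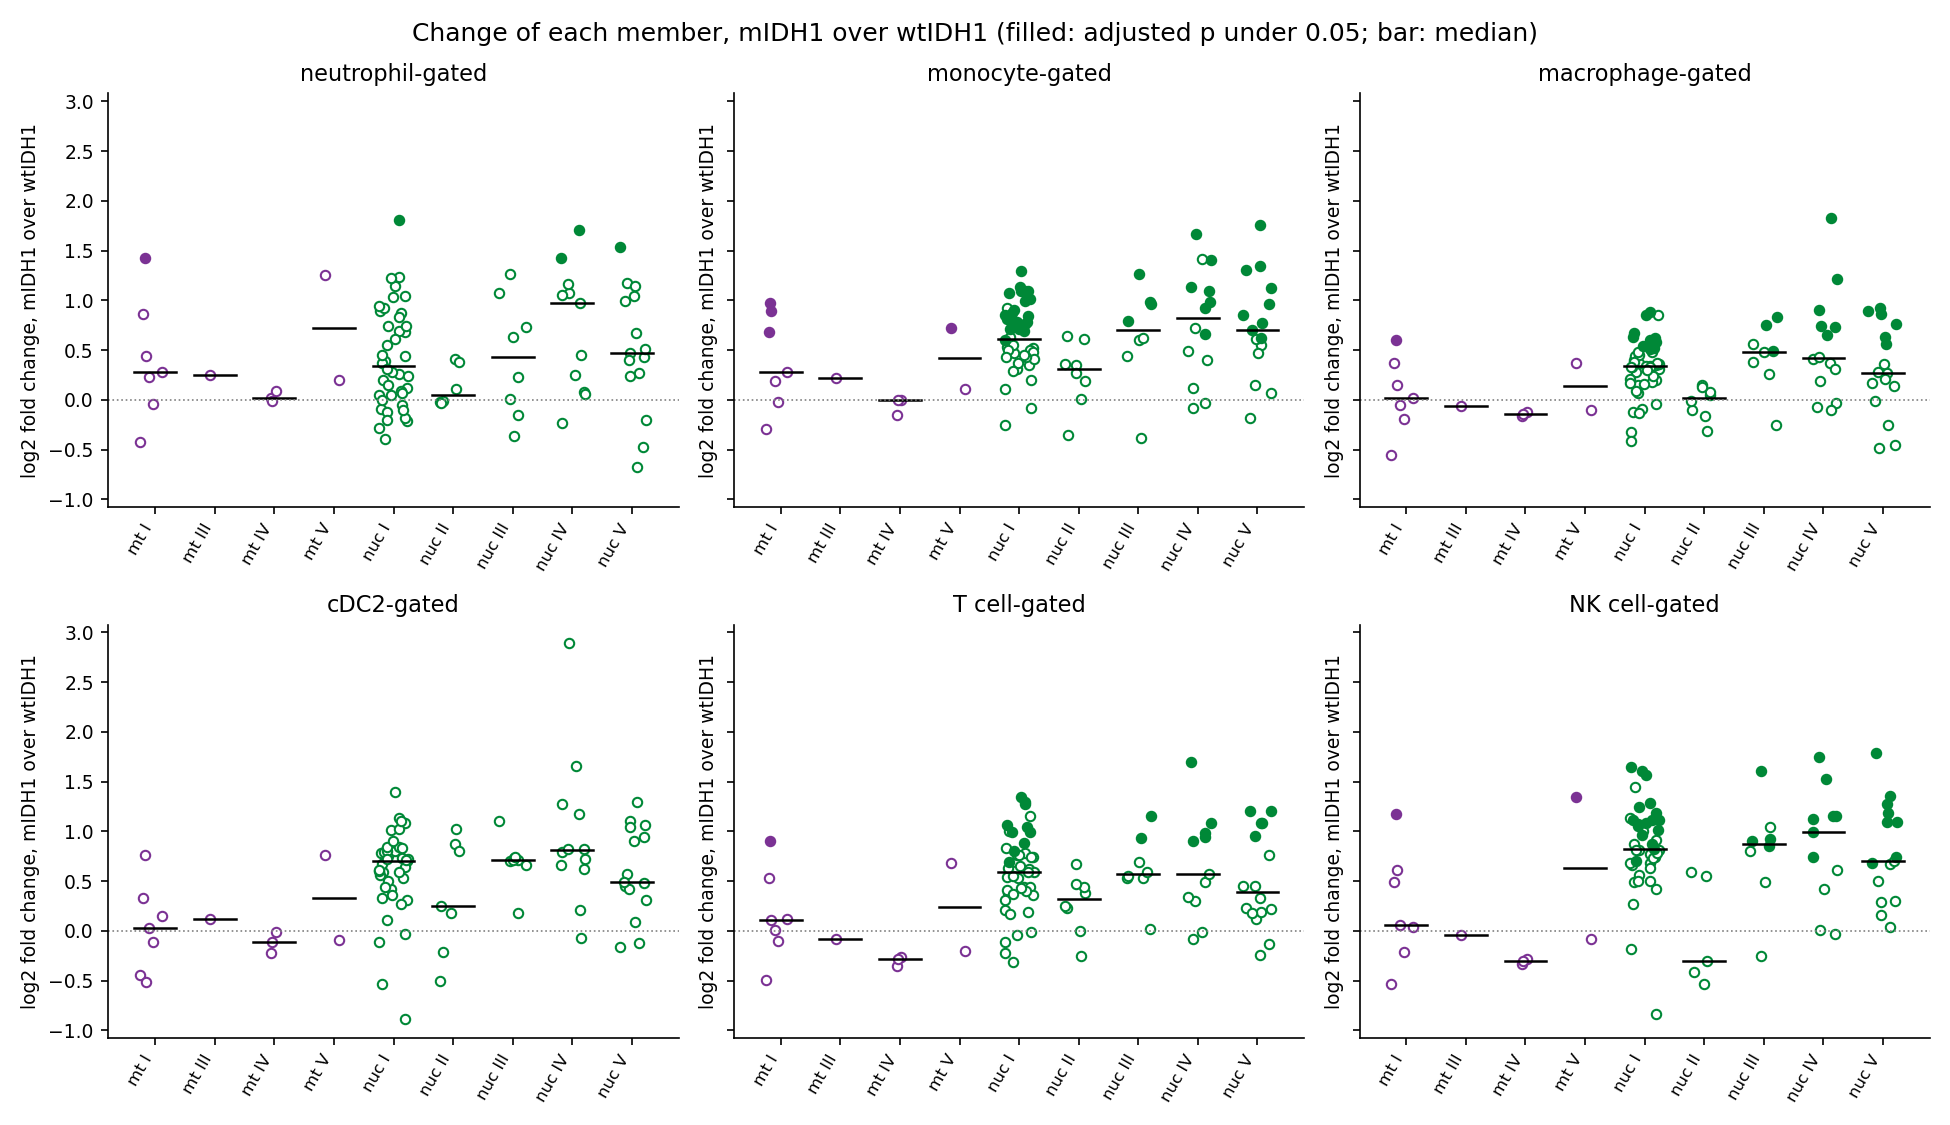
Log2 fold change of each tested member, mIDH1 over wtIDH1, in 6 gated classes, by genome (mt or nuc) and complex I to V, assembly factors included. Filled points have an adjusted p under 0.05 and bars are medians. Filled points are all above 0. Complex II (nuc II), with at most 4 subunits and 4 assembly factors, has none.

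Across the 6 classes 46 of the 93 nuclear members were called higher in at least 1 class, 15 in 4 classes, 3 in 5 and 0 in 6. The 3 were Cox8a, Cox5b and Atp5j. Cox8a, the short membrane subunit of complex IV, lies on chr19:7215153-7217616 and measured 267, 250.5, 525 and 876 CPM in monocyte-gated cells. In NK cell-gated cells it measured 254, 267, 554 and 915. The groups are far apart, and the log2 fold changes were 1.66 (SE 0.27, adjusted p = 0.00289) and 1.75 (SE 0.24, adjusted p = 0.000516). Its change was 1.71 in neutrophil-gated, 1.21 in macrophage-gated and 1.69 in T cell-gated cells, and 1.66 without passing the test in cDC2-gated cells (adjusted p = 0.0660).

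Cox5b, a nuclear subunit on the matrix side of complex IV, measured 241, 216, 361 and 413 CPM in macrophage-gated cells, where its log2 fold change was 0.90 (SE 0.17, adjusted p = 0.0145). Its change was 1.08 in T cell-gated and 1.53 in NK cell-gated cells. Cox7b and Cox7c, small subunits of the same complex, rose by 0.98 and 0.90 in T cell-gated cells. Complex IV subunits called higher numbered 7 of 14 in monocyte-gated, 6 of 14 in macrophage-gated, 5 of 11 in T cell-gated, 7 of 11 in NK cell-gated and 2 of 11 in neutrophil-gated cells. Some subunits did not pass the test in any class: Cox4i1, the ubiquitous form of subunit 4, measured 747, 786, 800.3 and 781 in macrophage-gated cells, with overlapping groups. Cox6a1, the ubiquitous form of subunit 6a, measured 469, 493, 412 and 403 there and changed by -0.23 to 0.12 across the 6 classes. Cox7a2l, which helps join complexes III and IV, measured 219, 221, 206 and 174. In macrophage-gated cells Cox8a and Cox5b rose, while both mIDH1 values of Cox6a1 were below both wtIDH1 values.

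In complex V, genes of a family that makes a single product also gave unlike values. Atp5g1, Atp5g2 and Atp5g3 encode precursors of the same mature subunit c, the ring that turns as protons pass. Atp5g1 measured 68.3, 62.3, 151 and 228 CPM in monocyte-gated cells and 117, 124, 187 and 229 in macrophage-gated cells, and rose by 1.76 (SE 0.24, adjusted p = 0.00141) and 0.92 (SE 0.18, adjusted p = 0.0161). It also rose by 1.21 in T cell-gated and 1.79 in NK cell-gated cells and changed by 0.47 in neutrophil-gated cells, where the groups overlapped. Atp5g2 measured 423, 476, 405 and 405 in macrophage-gated cells and was called in no class, its changes running from -0.20 to 0.30. Atp5g3 measured 321, 336, 238 and 197 there, lower in both mIDH1 libraries, with a log2 fold change of -0.46 that did not pass the test (SE 0.13, adjusted p = 0.0533). Under scaling by library totals alone the adjusted p of Atp5g3 was 0.0348, and it was then the only nuclear member called lower in a genotype comparison. The difference between Atp5g1 and Atp5g3 was not tested.

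Of the other parts of complex V, Atp5e (subunit epsilon) measured 416, 487, 933 and 1031 CPM in NK cell-gated cells and rose by 1.36 (SE 0.19, adjusted p = 0.000572). Atp5d, subunit delta of the rotor, rose by 1.27 in the same cells, and Atp5j, coupling factor 6 of the stator stalk, by 1.19. Complex V subunits called higher numbered 9 of 15 tested in monocyte-gated, 6 of 16 in macrophage-gated, 5 of 16 in T cell-gated and 8 of 15 in NK cell-gated cells.

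**Figure D3:**
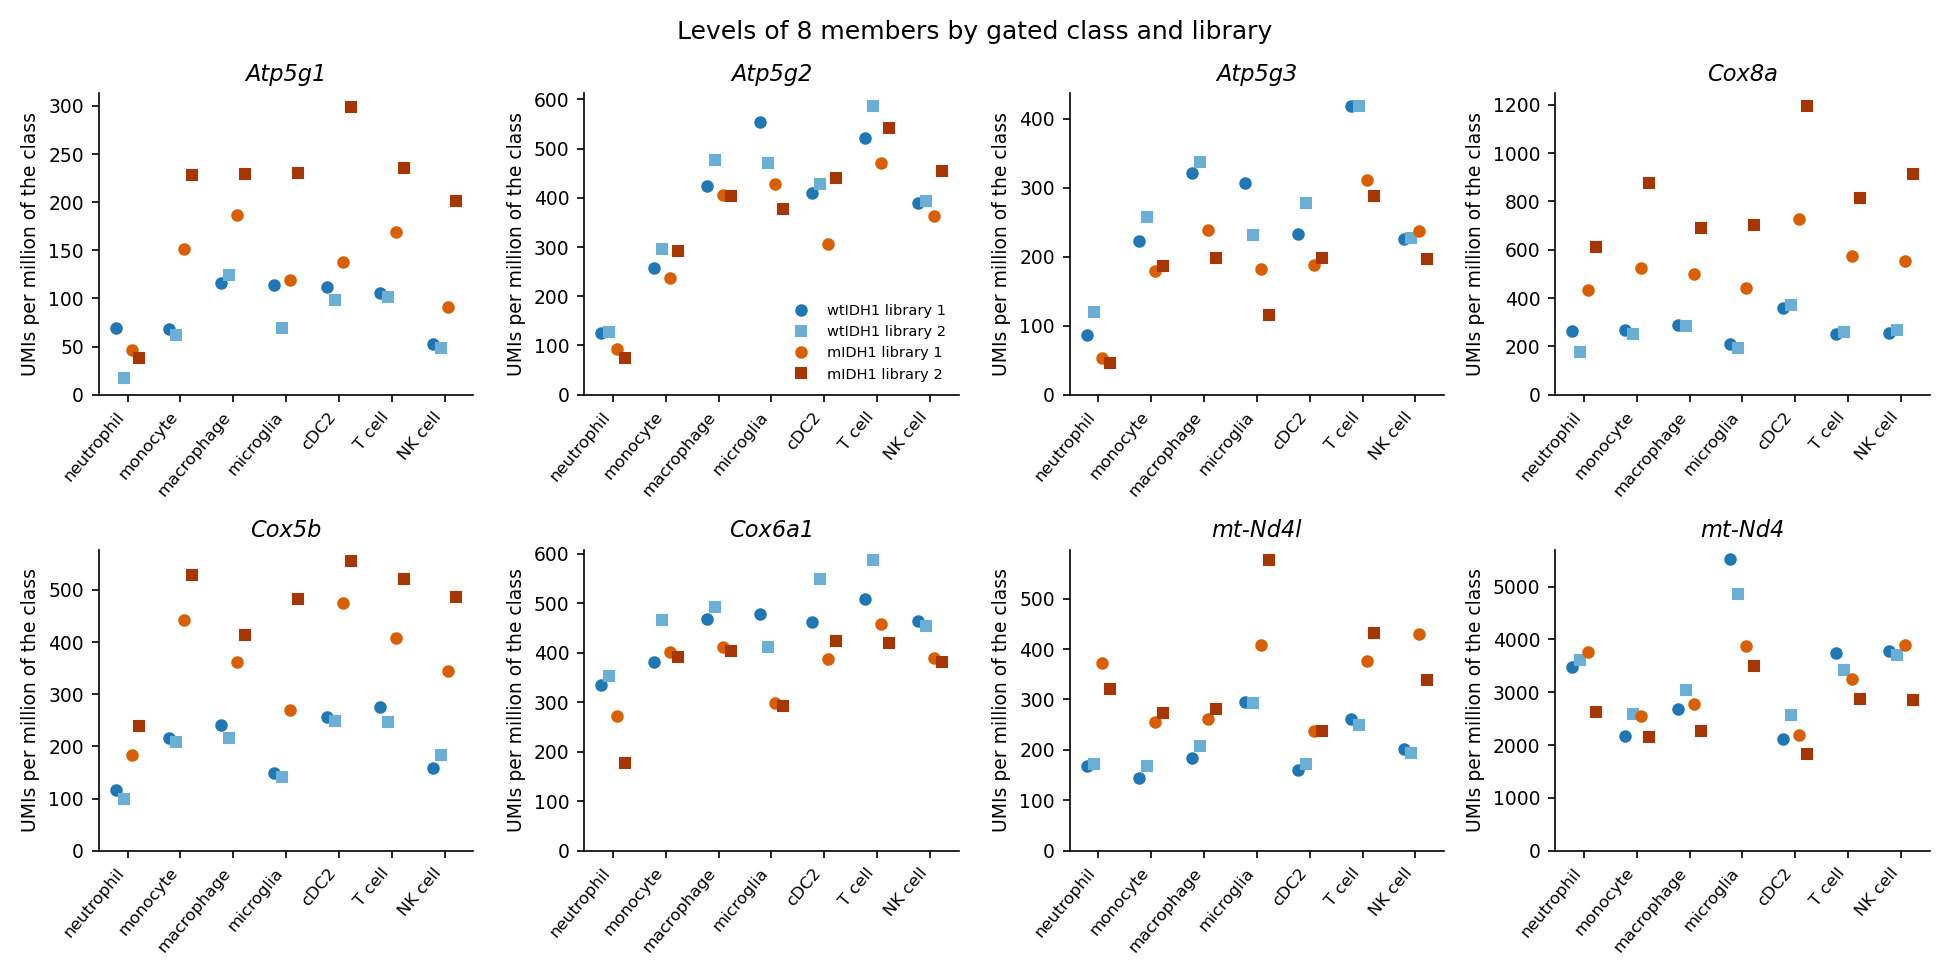
Level of 8 members in CPM (linear axes from 0), with 1 point per library in 7 gated classes. Cox8a and Cox5b lie higher in both mIDH1 libraries in each class and Atp5g1 in each class but neutrophil-gated cells, while Cox6a1, Atp5g2 and mt-Nd4 do not.

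Complex I, the largest group, had 19 of 37 tested nuclear subunits called in monocyte-gated, 15 of 37 in NK cell-gated and 9 of 37 in both macrophage- and T cell-gated cells. Ndufa13 (GRIM-19), an accessory subunit needed to build the membrane arm, measured 155, 149, 243 and 255 CPM in macrophage-gated cells and rose by 0.85 (SE 0.14, adjusted p = 0.0113). It measured 194, 209, 372 and 489 in T cell-gated cells and rose by 1.34. Ndufa7, Ndufb9 and Ndufv3, accessory subunits as well, rose by 0.88, 0.63 and 0.67 in macrophage-gated cells. Ndufb2 was the only nuclear subunit of complex I called in neutrophil-gated cells, from 17.2 and 17.5 to 51.8 and 40.9 CPM. The sums of that class held 232684 and 343247 UMIs in the wtIDH1 libraries, against 2393909 and 4667056 in the mIDH1 libraries. The wtIDH1 levels of Ndufb2 therefore rest on few UMIs. Among assembly factors, Ndufaf8 rose by 1.13 in monocyte-gated and 1.28 in T cell-gated cells.

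In complex III, which passes electrons to cytochrome c, 4 of 8 nuclear subunits rose in monocyte-gated, 3 in macrophage-gated, 2 in T cell-gated and 4 in NK cell-gated cells. Uqcrb, which binds ubiquinone, measured 129, 118, 187 and 278 CPM in T cell-gated cells and rose by 1.16 (SE 0.24, adjusted p = 0.0272). Uqcrc1, a core subunit of the matrix side, measured 51.5, 47.8, 74.6 and 77.5 in macrophage-gated cells and rose by 0.75. In complex II no subunit was called by edgeR in any of the 6 classes, and DESeq2 called 0 as well. Only 4 were tested per class, and at most 9.96% of all genes were called higher in a class. For so few genes, 0 calls is near the share of all genes. At an unadjusted p under 0.05, 1 of 4 was higher in each of monocyte-, cDC2- and T cell-gated cells, and 1 was lower in macrophage-gated cells. Sdha, the flavoprotein that oxidises succinate (chosen after its values were seen), measured 113, 122, 88.6 and 84.0 in macrophage-gated cells and changed by -0.32 (SE 0.13, adjusted p = 0.143). Sdhb, the iron-sulfur subunit, measured 98.1, 95.5, 98.1 and 94.4 there.

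Of the 13 mt-encoded members, 9 (mt-Co1, mt-Co2, mt-Co3, mt-Atp6, mt-Cytb, mt-Nd1, mt-Nd2, mt-Nd3 and mt-Nd4) were called in none of the 6 classes. For mt-Co1, the catalytic subunit of complex IV, the levels in T cell-gated cells were 15023, 13798, 11490 and 7740 CPM, lower in both mIDH1 libraries, with a log2 fold change of -0.36 (SE 0.21, adjusted p = 0.346). For mt-Nd3 they were 949, 1122, 767 and 523 in macrophage-gated cells, again lower in both, with a change of -0.56 (SE 0.18, adjusted p = 0.0739). Scaled by library totals alone, mt-Nd3 was called lower in T cell-gated cells (adjusted p = 0.0302) and NK cell-gated cells (adjusted p = 0.0289).

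A rise was called in 5 classes for mt-Nd4l. It measured 168, 172, 372 and 319.9 CPM in neutrophil-gated cells (log2 fold change 1.43, SE 0.28, adjusted p = 0.0226) and 201, 193, 429 and 339 in NK cell-gated cells (1.17, SE 0.20, adjusted p = 0.00183). Its neighbour on the same RNA, mt-Nd4, measured 3481, 3618, 3760 and 2632 in neutrophil-gated cells, with overlapping groups and a change of 0.23. The complex V pair was alike: mt-Atp8 rose in NK cell-gated cells from 97.4 and 103 to 200 and 231 (1.34, SE 0.23, adjusted p = 0.00183), where mt-Atp6 measured 10428, 9816, 9743 and 6757 (-0.08). In monocyte-gated cells mt-Atp8, mt-Nd5 and mt-Nd6 rose by 0.73, 0.69 and 0.89. No difference within these pairs was tested.

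Scaling, transcript length and other cells' markers moved with these changes, and their part in them was not tested. Scaling by library totals alone lowered the median log2 change of all genes from -0.01 to -0.40 in neutrophil-gated and from -0.02 to -0.22 in monocyte-gated cells, and to between -0.12 and -0.25 in the other 4 classes. The median of the nuclear members then went from 0.39 to -0.01 in neutrophil-gated cells, where no direction can be given, from 0.63 to 0.41 in monocyte-gated, 0.33 to 0.20 in macrophage-gated, 0.71 to 0.46 in cDC2-gated, 0.55 to 0.30 in T cell-gated and 0.81 to 0.58 in NK cell-gated cells. The median of the mt-encoded members went from 0.23 to -0.15, 0.19 to -0.02, -0.06 to -0.19, -0.01 to -0.26, -0.08 to -0.33 and -0.04 to -0.26 in the same order. With totals the members called numbered 2, 25, 17, 0, 21 and 23.

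Many nuclear members have short RNAs, and short RNAs as a whole were higher in the mIDH1 libraries. Of 89 nuclear members tested in monocyte-gated cells, 34 have a longest annotated transcript under 750 nucleotides, against 227 of 9671 genes with a length. Among all tested genes of that length, the median log2 change was 0.77 in neutrophil-gated, 0.84 in monocyte-gated, 0.64 in macrophage-gated, 0.78 in cDC2-gated, 0.83 in T cell-gated and 0.90 in NK cell-gated cells. Nuclear members of that length had medians of 0.42, 0.65, 0.39, 0.72, 0.57 and 0.86, none above that of all genes of that length. Members of 1000 to under 2000 nucleotides had medians of 0.28, 0.61, 0.30, 0.71, 0.53 and 0.80, against 0.13, 0.22, 0.10, 0.18, 0.17 and 0.22 for all genes of that length. The 9 to 11 members of 2000 to under 4000 nucleotides had medians of 0.24, 0.19, -0.10, -0.11, 0.25 and 0.04. All genes of that length had -0.07, -0.05, -0.05, -0.07, -0.045 and -0.06. Members were thus below all genes there in macrophage- and cDC2-gated cells and above them in the other classes. Ribosomal protein genes, another group of short abundant RNAs, had medians of 0.76 to 1.0. Spearman's correlation of change with length across all tested genes, which are not independent replicates, was -0.17 to -0.34. Atp5g1 has a longest annotated transcript of 4715 nucleotides, and Atp5g2 and Atp5g3, with 731 and 723, are among the short ones.

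**Figure D4:**
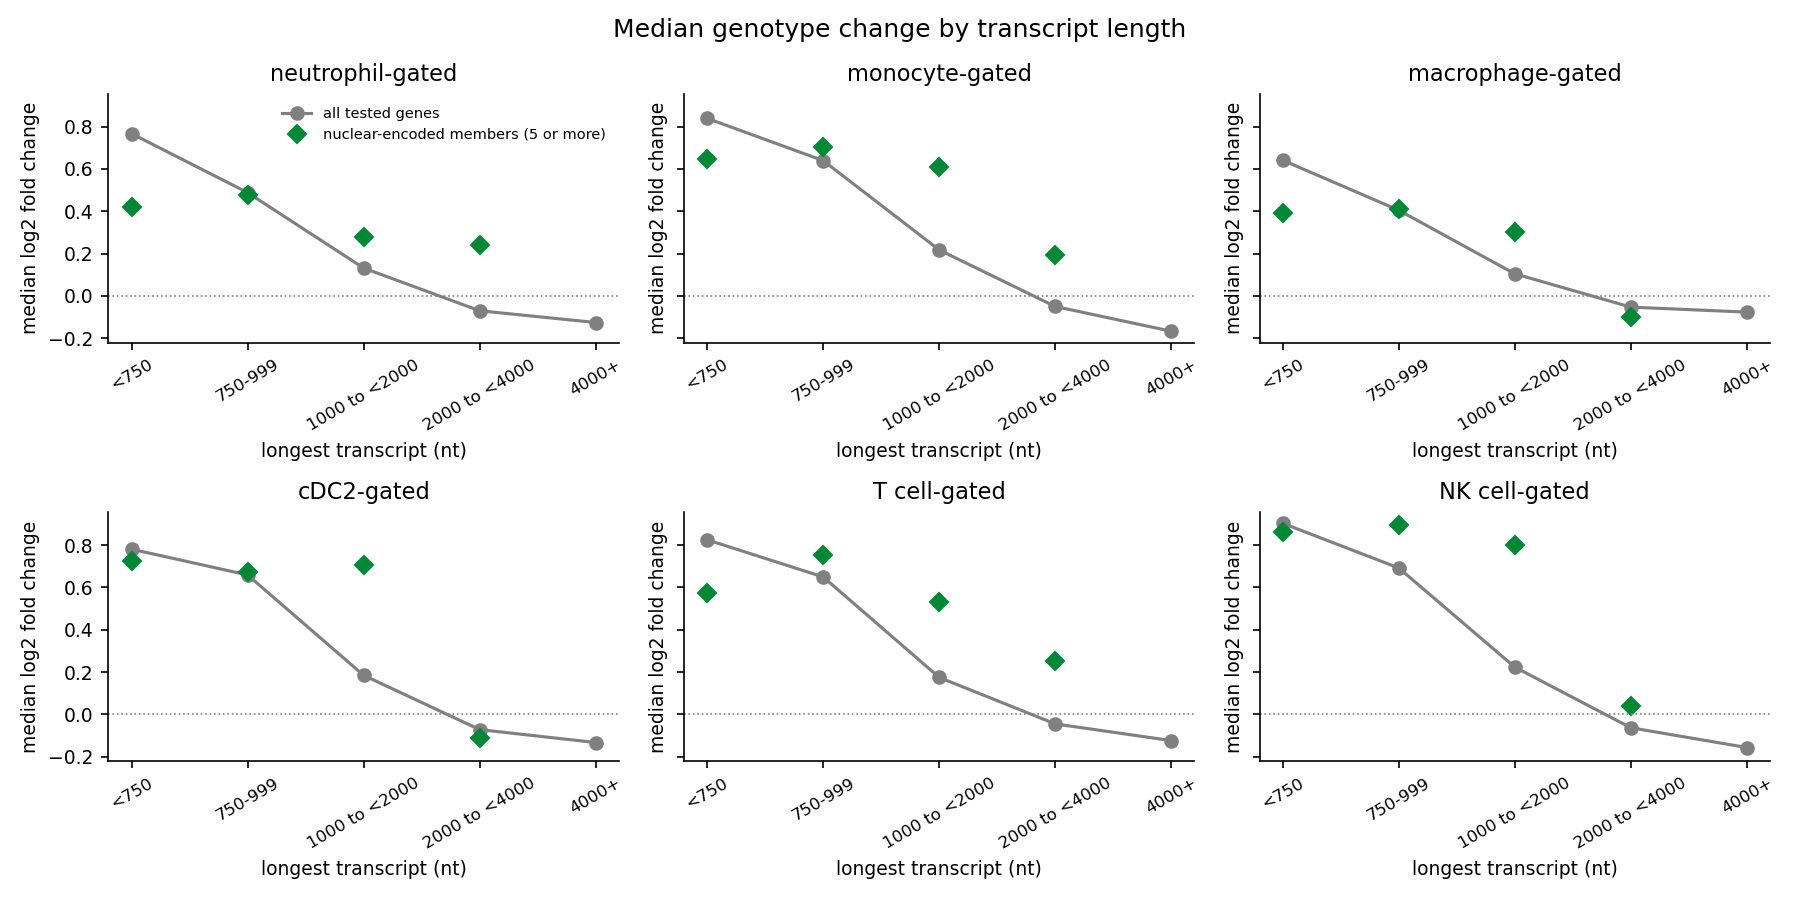
Median log2 fold change, mIDH1 over wtIDH1, of all tested genes (grey line) and of nuclear-encoded members (diamonds, shown where a bin holds 5 or more) by length of the longest transcript in nucleotides, for 6 gated classes. Medians of all genes fall with length in each class, and members lie at or below the line under 750 nucleotides and above it from 1000 to under 2000. From 2000 to under 4000 they lie below the line in macrophage- and cDC2-gated cells and above it in the other classes.

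Neutrophil markers were higher in other classes of the mIDH1 libraries, which held 1084 and 1845 neutrophil-gated cells against 110 and 195, with cDC2-gated cells as the exception. The summed level of the 10 neutrophil markers was 123, 116, 175 and 292 CPM in T cell-gated, 31.6, 85.0, 125 and 406 in NK cell-gated, 705, 707, 1217 and 1983 in monocyte-gated and 677, 540, 831 and 853 in macrophage-gated cells. In cDC2-gated cells it was 1010, 1046, 743 and 925. Nuclear members summed to a lower share of UMIs in neutrophil-gated cells than in each of these classes. Single members did not all follow, as Cox8a did not pass the test against macrophage-gated cells. What RNA from other cells adds to the changes was not tested. Within neutrophil-gated cells the same markers took 51168, 45075, 58682 and 126195, highest in mIDH1 library 2. Other lists moved too: macrophage markers were 6925, 6081, 10614 and 9117 in monocyte-gated and 301, 291, 388 and 1224 in T cell-gated cells. NK cell markers were 1986, 3597, 2828 and 602 in T cell-gated cells, lowest in mIDH1 library 2.

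Other genes of mitochondrial biogenesis were counted from 6 lists, and the genes named from them were chosen after their values were seen. Of the mitochondrial ribosome genes, which make the protein of the mt-encoded RNAs, 22 of 77 rose in monocyte-gated, 8 of 77 in macrophage-gated, 14 of 77 in T cell-gated, 9 of 62 in NK cell-gated and 1 of 66 in neutrophil-gated cells, and 0 fell. The counts in macrophage- and neutrophil-gated cells are near the shares of all genes called higher there, 9.92% and 1.41%, while in monocyte-, T cell- and NK cell-gated cells those shares were 9.96%, 3.54% and 4.60%. Medians of the mitochondrial ribosome genes were 0.53, 0.32, 0.47, 0.59 and 0.41 in monocyte-, macrophage-, T cell-, NK cell- and neutrophil-gated cells. Those of the nuclear members were 0.63, 0.33, 0.55, 0.81 and 0.39. Mrpl33 rose by 1.17 in monocyte-gated cells. No gene of the tricarboxylic acid cycle list rose in any class, and 1 fell, Ogdh in neutrophil-gated cells by 1.33. Of the list of electron carriers, the ATP synthase inhibitor and hypoxia-linked genes, 6 of 9 rose in macrophage-gated and 4 of 9 in monocyte-gated cells. In macrophage-gated cells Higd1a, which binds respiratory complexes under hypoxia, rose by 1.0, Bnip3, a mitophagy receptor, by 0.85 and Pdk1, which slows pyruvate entry into the mitochondrion, by 0.68. In monocyte-gated cells Cycs, cytochrome c, rose by 1.11. Of the list of regulators, Esrra fell by 0.58 in macrophage-gated cells and no gene rose.

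Between classes of the same libraries, neutrophil-gated cells had less nuclear-encoded respiratory chain RNA than macrophage-gated cells and, with edgeR's TMM scaling, more of most mt-encoded RNAs. With library as a block in edgeR, 71 of 88 tested nuclear members were lower, where 36.8% of all genes were called lower, and 12 of 13 mt-encoded members were higher, where 26.0% were. The other member called higher was Ndufaf7, a methyltransferase that modifies a complex I subunit, by 1.83 (SE 0.40, adjusted p = 0.000802). Median log2 differences were -0.83 for nuclear complex I, -0.58 for complex II, -0.90 for complex III, -0.67 for complex IV and -1.0 for complex V subunits, and 0.58 for mt-encoded members, beside -0.32 for all genes. Of complex V, 14 of 15 tested subunits were lower.

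Ndufa5 measured 12.9, 35, 19.6 and 13.9 CPM in neutrophil-gated cells and 97.8, 101, 119 and 105 in macrophage-gated cells, a log2 difference of -2.09 (SE 0.22, adjusted p = 3.52e-07). Ndufc2 measured 38.7, 37.9, 33.4 and 27.2 against 154, 151, 169 and 190, a difference of -1.95. All 3 subunit c genes were lower, at -1.66 for Atp5g1, -1.68 for Atp5g2 and -1.53 for Atp5g3. Cox8a (0.12), Cox6a1 (-0.30) and Cox7a2 (-0.14) did not pass the test. The highest difference among mt-encoded members was that of mt-Nd3, at 0.78 (SE 0.15, adjusted p = 0.000244). Scaled by library totals alone, 83 nuclear members were lower and 2 mt-encoded members higher, with an mt-encoded median of 0.16 and an all-gene median of -0.76, so that the count of mt-encoded members called higher rests on the scaling. With cells of at most 10% mitochondrial UMIs, 3 mt-encoded members were higher.

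**Figure D5:**
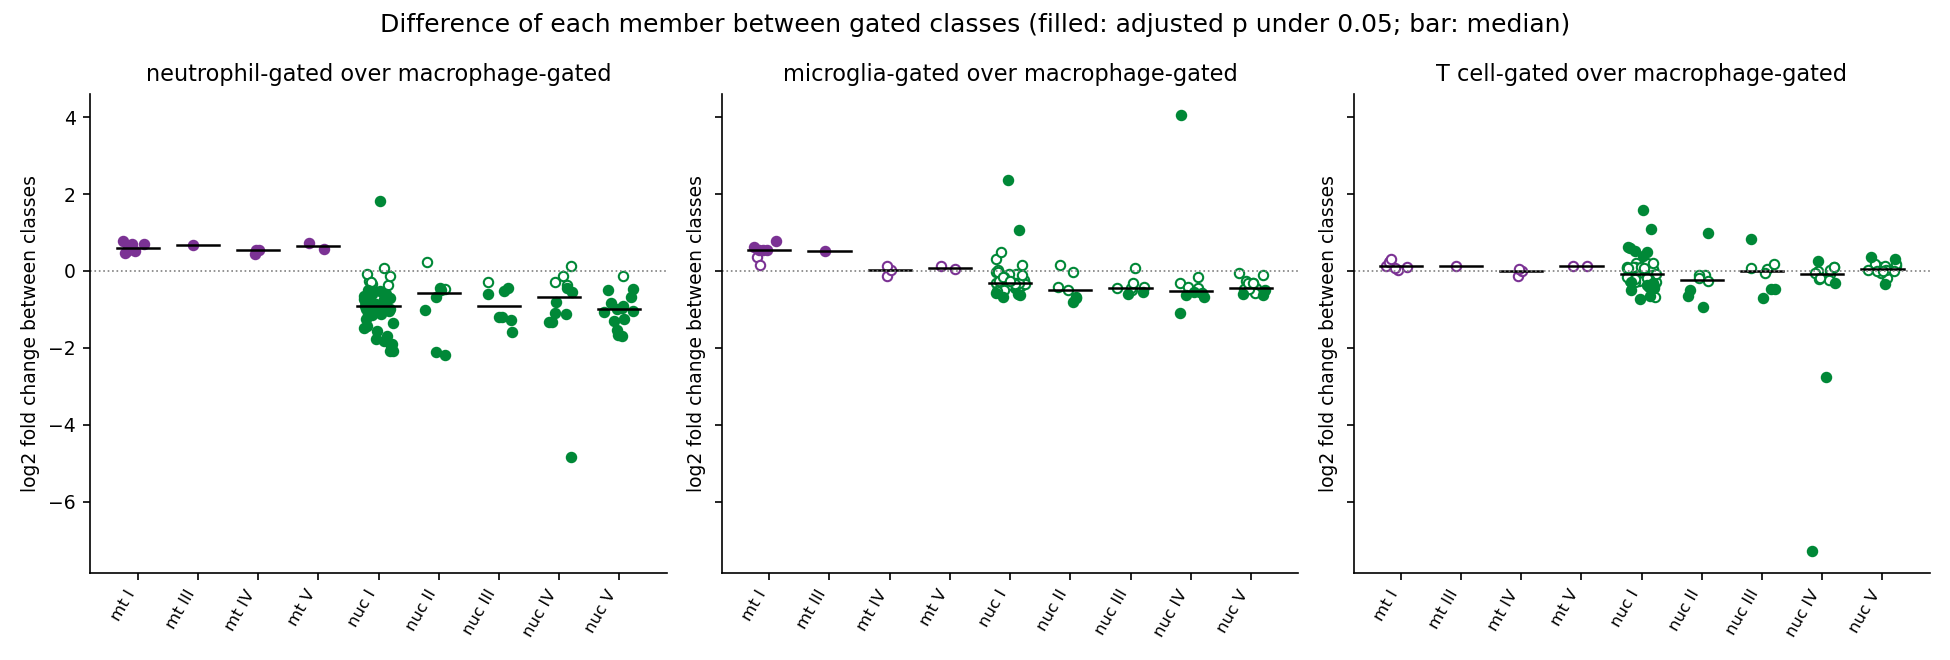
Log2 difference of each tested member between gated classes of the same libraries, by genome (mt or nuc) and complex I to V, assembly factors included. In neutrophil-gated over macrophage-gated cells (left) mt-encoded members lie above 0 and most nuclear ones below, while T cell-gated over macrophage-gated cells (right) centre near 0.

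Of the other lists, 63 of 77 mitochondrial ribosome genes and 12 of 17 genes of the tricarboxylic acid cycle were lower in neutrophil-gated cells. Idh2, the mitochondrial isocitrate dehydrogenase, had a log2 difference of -2.58. Tfam, which packages mitochondrial DNA, had a log2 difference of -1.65. Of 9 tested regulators of respiratory chain genes 4 were higher and 3 lower, among them Nrf1 at 1.33, Gabpb1 at 1.97 and Ppargc1b at -2.42. Of 24 cofactor and assembly genes 9 were lower and 1 higher, Cox17, which delivers copper to complex IV, at 1.99. Of all genes 36.8% were called lower and 26.0% higher in this comparison. The counts lower among regulators and among cofactor and assembly genes are near the first of these shares.

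Microglia-gated cells differed from macrophage-gated cells in fewer members, 9 of 98 higher (9.77% of all genes) and 16 lower (11.0%). Among the higher were 6 mt-encoded members: mt-Nd1, mt-Nd2, mt-Nd3, mt-Nd4, mt-Nd4l and mt-Cytb. For mt-Nd2 the levels were 4401, 3780, 3030 and 3351 CPM against 1897, 2060, 1982 and 1676, a log2 difference of 0.77 (SE 0.16, adjusted p = 0.00361). The 3 mt-encoded subunits of complex IV did not pass, at -0.12 to 0.14. Cox5a, a nuclear subunit of complex IV, was lower, at -1.08 (SE 0.18, adjusted p = 0.000873). Ndufa4, named for complex I and known as a subunit of complex IV, was higher by 1.06, and Ndufaf7 by 2.37. The microglia-gated sum of mIDH1 library 2 came from 10 cells with 95490 UMIs. It entered this test like the others, since the limit of 30 cells was set for genotype tests only. The macrophage list summed to 26628 to 49995 CPM in microglia-gated cells and was higher in the mIDH1 libraries, and the neutrophil list summed to 314, 490, 1032 and 4336. Without wtIDH1 libraries 1 and 2, 0 and 1 of the mt-encoded members were called, and without mIDH1 library 1, 11 members in all; scaling by totals gave 12.

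The member that set microglia-gated cells apart most was Cox6a2, the form of subunit 6a known from heart and skeletal muscle. It measured 98.2, 61.0, 46.9 and 105 CPM in microglia-gated cells, against 5.42, 2.30, 5.42 and 2.48 in macrophage-gated cells, a log2 difference of 4.05 (SE 0.36, adjusted p = 4.41e-06). The classes did not overlap, and the microglia-gated value of mIDH1 library 2, 105 CPM, came from 10 cells. Of 243 microglia-gated cells 61 had a Cox6a2 UMI (median 5589 UMIs per cell over the class), against 62 of 2739 macrophage-gated cells (median 2286) and 13 of 3234 neutrophil-gated cells. In cDC2-gated cells 131 UMIs came from 20 of 337 cells, with 0, 28.1, 87.9 and 101 CPM by library, and in cells of no class 460 UMIs came from 99 cells.

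The other tissue forms of complex IV were sparse. Cox7a1, the muscle form of subunit 7a, measured 4.88, 5.57, 13.9 and 21.4 CPM in macrophage-gated cells, rose there by 1.82 in mIDH1 libraries (SE 0.35, adjusted p = 0.0159), and measured 6.31, 0.737, 10.5 and 8.80 in monocyte-gated cells. In neutrophil-gated cells it had 0, 0, 1 and 2 UMIs, in T cell-gated cells 20 in all, and in B cell-gated cells 0. Its rise in macrophage-gated cells did not pass without wtIDH1 library 1 (adjusted p = 0.0917) or library 2 (adjusted p = 0.0575). Cox4i2, the hypoxia-inducible form of subunit 4, had 96 UMIs in macrophage-gated and 46 in monocyte-gated cells. It had 0 UMIs in 1812 T cell-gated cells over all 4 libraries, which by counting error alone allows a UMI in up to 0.166% of cells. Cox6b2, the testis form of subunit 6b, measured 4.86, 9.95, 6.38 and 5.53 in monocyte-gated cells and 1.90, 1.94, 1.02 and 1.99 in macrophage-gated cells. Pooled over libraries, its level was 2.48 CPM in T cell-gated cells, above the 1.66 of macrophage-gated cells. Ndufa4l2, also known from hypoxia, had 90 UMIs in the kept cells, 51 of them in cells of no class, 23 in macrophage-gated and 14 in monocyte-gated cells.

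T cell-gated cells differed from macrophage-gated cells in both directions, with 12 of 103 members higher (30.5% of all genes) and 19 lower (31.5%), shares below those of all genes. No mt-encoded member was called by edgeR or DESeq2, and 2 were higher at an unadjusted p under 0.05. Ndufa4 measured 289, 312, 226 and 349 CPM against 96.7, 108, 148 and 118, a difference of 1.10 (SE 0.16, adjusted p = 0.000443). Uqcrh, the hinge subunit of complex III, was higher by 0.82. Sdhd and Sdhc, which anchor complex II in the membrane, were lower, at -0.93 and -0.65, and the complex II assembly factor Sdhaf1 was higher by 0.98. Scaled by library totals, 46 members were higher and 8 lower, with an all-gene median of 0.22 in place of 0.00.

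Whether the genotype change itself differed between neutrophil- and macrophage-gated cells was tested by the class by genotype term. It was called for 3 of 104 members, all higher in neutrophil-gated cells, where 2.29% of all genes were. That count is near the share of all genes. The 3 were mt-Nd4l (difference of log2 changes 1.15, SE 0.31, adjusted p = 0.0136), mt-Atp8 (1.11, SE 0.32, adjusted p = 0.0271) and Atp5l (1.0, SE 0.30, adjusted p = 0.0345). The median over members was 0.49 beside 0.36 over all genes, and library totals turned these to -0.10 and -0.21 with 0 members called. DESeq2 called 0, leaving out any 1 library gave 0, and 19 members had an unadjusted p under 0.05.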

How the data were processed

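Single-cell RNA libraries (10x Genomics) of 4 samples were used, 2 per tumour genotype. Whole-number UMI counts per gene and cell were deposited by the authors as filtered matrices, made with Cell Ranger 3.1 on mm10 per the submitters' processing notes, and the file headers name software version 3.0.0. Cells with at least 200 genes and at most 25% mitochondrial UMIs were kept, and the highest Scrublet scores were removed at 0.8% per 1000 cells, because its automatic threshold marked almost none. A cell was gated when at least 3 markers of a list were detected and its share led the next list by 0.15. Counts of the cells of a class were added up within each library, and edgeR 4.0.16 quasi-likelihood tests (TMM scaling, filterByExpr, R 4.3.3) were run over all genes with Benjamini-Hochberg adjustment at 0.05, genotype within each class and classes with library as a block. DESeq2 1.42.0, scaling, filters, gates, the mitochondrial limit and leaving out each library were alternatives. The procedure was tested on simulated data. Levels are CPM of the class's summed counts. Genes were named by rule: all mt-encoded members, up to 4 nuclear members per complex and direction with the lowest p among those called, and a list of tissue isoforms. The members and lists were chosen with earlier results of these data known. Replicate numbers carry no stated pairing. Barcodes per library numbered 3701 to 4708. Most mt-encoded members have more UMIs than any nuclear member, and so the smallest sampling error. This does not hold for mt-Nd6 (2560 UMIs), mt-Atp8 (16935), mt-Nd4l (30435) and mt-Nd5 (53067), which have fewer than the nuclear Cox4i1 (68733). Microglia- and B cell-gated cells were left out of genotype tests for fewer than 30 cells in a library.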

Additional observations from a re-analysis of the deposited data

Results flagged for a closer look

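The edgeR test of a genotype change that differs between neutrophil-gated and macrophage-gated cells called 3 of 104 members. Each had the larger log2 change in neutrophil-gated cells. Of all genes 2.29% were called higher in that test, so that the count is near the share of all genes. The differences were 1.15 for mt-Nd4l, 1.11 for mt-Atp8 and 1.0 for Atp5l, a membrane subunit of complex V. All genes tested had a median difference of 0.36. None of the 3 passed with library totals as the scaling or with DESeq2, and leaving out any 1 library left 0 members called. The cause was not tested.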

How the results depend on the processing

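No ratio changed direction, but library totals turned the balance of calls between classes. T cell-gated against macrophage-gated cells went from 12 members higher and 19 lower to 46 and 8. Microglia-gated against macrophage-gated cells went from 9 and 16 to 10 and 2. Library totals also turned the sign of medians over members. In neutrophil-gated cells these went from 0.39 to -0.01 (nuclear) and 0.23 to -0.15 (mt-encoded), and in monocyte-gated cells from 0.19 to -0.02 (mt-encoded). For the difference of genotype effects the median went from 0.49 to -0.10. For nuclear members in T cell-gated against macrophage-gated cells it went from -0.04 to 0.18. The log2 ratio of mt-encoded to nuclear-encoded UMIs kept its sign under every alternative run; leaving out 1 library gave -0.67 to -0.23 in neutrophil-gated, -0.96 to -0.40 in monocyte-gated, -0.69 to -0.31 in macrophage-gated, -1.33 to -0.66 in microglia-gated, -1.06 to -0.48 in cDC2-gated, -1.04 to -0.53 in T cell-gated and -1.40 to -0.57 in NK cell-gated cells. Counts of members called were less stable, and the cause was not tested. Leaving out 1 library gave 1 to 20 in neutrophil-gated, 16 to 59 in monocyte-gated, 0 to 25 in macrophage-gated, 0 to 49 in cDC2-gated, 6 to 65 in T cell-gated and 11 to 69 in NK cell-gated cells, 56 to 67 for neutrophil-gated, 5 to 21 for microglia-gated and 23 to 33 for T cell-gated against macrophage-gated cells, and 0 for the difference of genotype effects. Library totals, with and without mt-encoded genes, gave 2 and 2 in neutrophil-gated, 25 and 24 in monocyte-gated, 17 and 17 in macrophage-gated and 23 and 22 in NK cell-gated cells, 12 and 12 for microglia-gated and 54 and 55 for T cell-gated against macrophage-gated cells, and 0 and 0 for the difference of genotype effects. DESeq2 gave 12 in cDC2-gated and 24 in NK cell-gated cells and 0 for the difference. Without the low count filter 18, 13 and 38 were called in neutrophil-, cDC2- and T cell-gated cells and 0 for the difference. In neutrophil-gated cells a limit of 10% mitochondrial UMIs gave 11 and no doublet removal 8. Macrophage-gated cells of 3000 or more UMIs gave 15 against microglia-gated cells. No mitochondrial limit, the stricter gate and no doublet removal each gave 0 for the difference. With the replicate number as a block, 17, 42, 20, 15, 32 and 48 members were called in neutrophil-, monocyte-, macrophage-, cDC2-, T cell- and NK cell-gated cells. The log2 difference of library 1 minus library 2 was taken within each genotype. Over genes, the wtIDH1 and mIDH1 differences correlated at -0.15 to 0.12 by class. Such a correlation cannot settle whether the numbers pair the libraries, and the labels state no pairing. The count of calls was not run with the stricter gate in cDC2-gated cells, where the log2 ratio was -0.85.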
